A study of Mus musculus with 23 samples.

Results

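The collagen gene family was followed through the colon and colon tumors of Cdx2Apcf/w mice. Its members were the genes whose symbol consists of Col, a collagen type number, the letter a and a chain number, which gave 44 of the 55449 genes in the count table, by a rule that used no measured value. By structure they were placed in 8 classes, namely 11 fibrillar chains, 6 chains of the type IV basement membrane network, 6 chains of the type VI beaded filaments, 9 fibril-associated chains, 3 short-chain network chains, 2 multiplexins, 4 transmembrane collagens and 3 others, among them the anchoring fibril chain.

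RNA from 23 colon samples was sequenced to ask how the colon differs when *Bacteroides fragilis* makes little or much bile salt hydrolase (BSH), the bacterial enzyme that frees bile acids from taurine and glycine. All mice were male C57BL/6 animals of genotype Cdx2Apcf/w, in which Cre driven by *Cdx2* removes 1 floxed *Apc* allele in colon epithelium while the other allele is wild type, and all were fed a 60% high-fat diet (HFD) from 6 to 8 weeks of age. They were repeatedly colonized by mouth with strain BF638R bsh- (empty vector, BSHlow) or BF638R bsh+ (the same strain carrying the bsh gene of another *B. fragilis* strain, BSHhigh) for 2 or 12 weeks. Per the study's methods, colonized mice first drank water with the antibiotics neomycin, streptomycin and bacitracin for a few days. Normal colon was taken at 2 weeks (4 BSHlow and 4 BSHhigh libraries), and non-tumor tissue (4 and 4) and tumors (4 and 3) at 12 weeks. No group kept both *Apc* alleles and none went without bacteria or without HFD, so neither the allele nor the diet can be compared here, and the labels do not say which tumor and which non-tumor tissue came from the same mouse.

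Each library held 12401388 to 17903008 expected counts per the deposited table. Levels are given as CPM (a gene's count relative to the total of its library, in parts for each 1000000 counts), scaled between libraries by the trimmed mean of M values (TMM). Except for shares of summed CPM, levels of different genes were compared per kilobase of transcript. The study calls the samples independent and, in a figure legend, their sample sizes pooled. Whether a sample held a single mouse or several is not stated. Where samples shared a mouse or cage, or held several mice, the p-values would measure less than the spread between animals. The colon epithelium markers *Epcam*, *Cdh1*, *Vil1*, *Krt8*, *Krt20* and *Cdx2* summed to 3075 to 15780 CPM over the 23 libraries, of which *Epcam* took 826 to 2016 and *Krt8* 1463 to 9081 CPM. *Cdx2*, the intestinal transcription factor gene, was much lower at 12 weeks, with 307 to 418 CPM in normal colon, 6.34 to 60.5 CPM in non-tumor tissues and 0.257 to 27.6 CPM in tumors. The differentiation keratin *Krt20* stood at 1114 to 2028, 399 to 649 and 10.8 to 456.5 CPM in the same tissues. The BSHlow non-tumor replicate 2 stood apart, with 8186 CPM of 8 smooth muscle markers against 1483 CPM at the lowest of its group. Collagen calls that rest on it are given with and without it. For genes outside the family, such as cell type markers, no fold change without it is given.

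Collagens are secreted or membrane-bound proteins in which 3 chains wind into a triple helix of repeated glycine triplets. In the gut wall fibroblasts, smooth muscle cells, pericytes and endothelial cells make most of them: fibrillar collagens give the submucosa its tensile strength, type IV collagen forms the sheet beneath epithelium, vessels and muscle, and type VI filaments link cells to the fibrils. The chains are hydroxylated and folded in the endoplasmic reticulum, trimmed by proteases outside the cell, cross-linked by lysyl oxidases and read by integrin and discoidin domain receptors.

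The 2 chains of the common type IV molecule are encoded head to head, and their start sites lie so close that 1 stretch of DNA serves as promoter for both. *Col4a1* (ENSMUSG00000031502.11, chr8:11198423-11312826, minus strand) and *Col4a2* (ENSMUSG00000031503.13, chr8:11312805-11449287, plus strand) are shown because they were called together in the tumor and in the time comparisons. RefSeq promoter windows of GRCm38.p6, from 250 bases before to 50 bases after each start, lie at chr8:11312777-11313076 on the minus strand for *Col4a1* and at chr8:11312555-11312854 on the plus strand for *Col4a2*. They are written 5′ to 3′ on the strand of each gene, and the 22 capital bases run from the one start site to the other, which lie 21 bases apart, and so belong to both transcripts.
Col4a1: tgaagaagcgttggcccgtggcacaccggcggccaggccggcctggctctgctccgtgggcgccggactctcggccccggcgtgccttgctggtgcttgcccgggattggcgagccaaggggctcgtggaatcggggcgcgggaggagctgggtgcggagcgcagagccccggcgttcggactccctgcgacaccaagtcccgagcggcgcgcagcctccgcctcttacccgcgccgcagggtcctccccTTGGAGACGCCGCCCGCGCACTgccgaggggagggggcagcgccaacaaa
Col4a2: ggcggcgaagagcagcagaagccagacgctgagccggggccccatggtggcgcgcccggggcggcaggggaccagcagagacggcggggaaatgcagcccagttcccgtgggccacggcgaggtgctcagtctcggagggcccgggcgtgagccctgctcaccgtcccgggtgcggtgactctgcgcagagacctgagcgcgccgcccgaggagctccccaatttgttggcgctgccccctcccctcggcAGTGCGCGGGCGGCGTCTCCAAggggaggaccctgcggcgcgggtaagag
The windows share 78 bases, read from opposite strands. Searched on both strands, neither held the letters TATAAA, each held CCAAT, once in each, and the letters GGGCGG occurred 1 time in the *Col4a1* and 3 times in the *Col4a2* window. Over the 38 windows found for 35 of the 44 collagen genes, TATAAA was present in 13.2%, CCAAT in 34.2% and GGGCGG in 60.5%, against 13.6%, 37.4% and 35.7% of all 32851 windows. These are matches of letters and not measured sites.

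In the samples, the per-kilobase levels of *Col4a1* and *Col4a2* kept a ratio of 1.49 to 2.85 across the 23 libraries, and of 1.66 to 1.77 in BSHlow and 1.66 to 1.85 in BSHhigh tumors. Head-to-head pairs also exist for *Col4a3* with *Col4a4* and for *Col4a5* with *Col4a6*. The ratio of *Col4a5* to *Col4a6* was far less even, at 2.09 to 3.10 in BSHlow non-tumor tissues and 5.56 to 14.6 in BSHlow tumors. *Col4a6* had 6 to 43 counts in these tumors, so the ratio there rests on few counts. An even ratio was not particular to *Col4a1* and *Col4a2*. *Col6a1* and *Col6a2*, on the same strand and 85161 bases apart, kept a ratio of 0.933 to 1.35 across the 23 libraries.

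The family as a whole took a small part of the transcripts in normal colon and a larger one in tumors. Collagen genes made up 0.0124 to 0.0350% of all counts in the BSHlow and 0.00898 to 0.0336% in the BSHhigh normal colons of 2 weeks. At 12 weeks the share was 0.0642 to 0.452% in BSHlow and 0.118 to 0.203% in BSHhigh non-tumor tissues, and 0.463 to 0.805% and 0.468 to 0.493% in the tumors. The 2-week libraries lay below all 12-week libraries, and only the BSHlow non-tumor replicate 2, at the top of its group, came close to the tumors, the lowest of which was just above it.

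A few members carried most of this. The 3 with the most CPM, not corrected for transcript length, held 40.0 to 56.0% of collagen CPM and the first 10 held 75.2 to 88.1%, depending on the group. *Col3a1*, the reticular fibre chain of distensible tissue, was highest per kilobase in all 6 groups, at 10.5 ± 5.31 and 9.19 ± 8.77 CPM per kilobase (mean ± SD) in BSHlow and BSHhigh normal colon, 122 ± 122 and 71.5 ± 31.1 in non-tumor tissues, and 163 ± 48.7 and 134 ± 18.9 in tumors. In BSHlow tumors *Col1a1* followed at 118 ± 71.2, *Col4a1* at 116 ± 26.2, *Col1a2* at 91.5 ± 32.04 and *Col4a2* at 67.4 ± 17.1 CPM per kilobase. In BSHhigh tumors the values were 79.5 ± 12.3 for *Col1a1*, 95.1 ± 5.55 for *Col4a1*, 81.5 ± 9.65 for *Col1a2* and 54.95 ± 6.26 for *Col4a2*. *Col1a1* and *Col4a1* did not differ beyond their spread in BSHlow tumors, nor did *Col1a1* and *Col1a2* in BSHhigh tumors, and in normal colon of 2 weeks the *Col6a1* and *Col6a2* levels of 5.04 ± 2.76 and 4.92 ± 3.02 CPM per kilobase in BSHlow mice were likewise not separated from the 4.70 ± 2.17 of *Col1a2*.

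**Figure D1:**
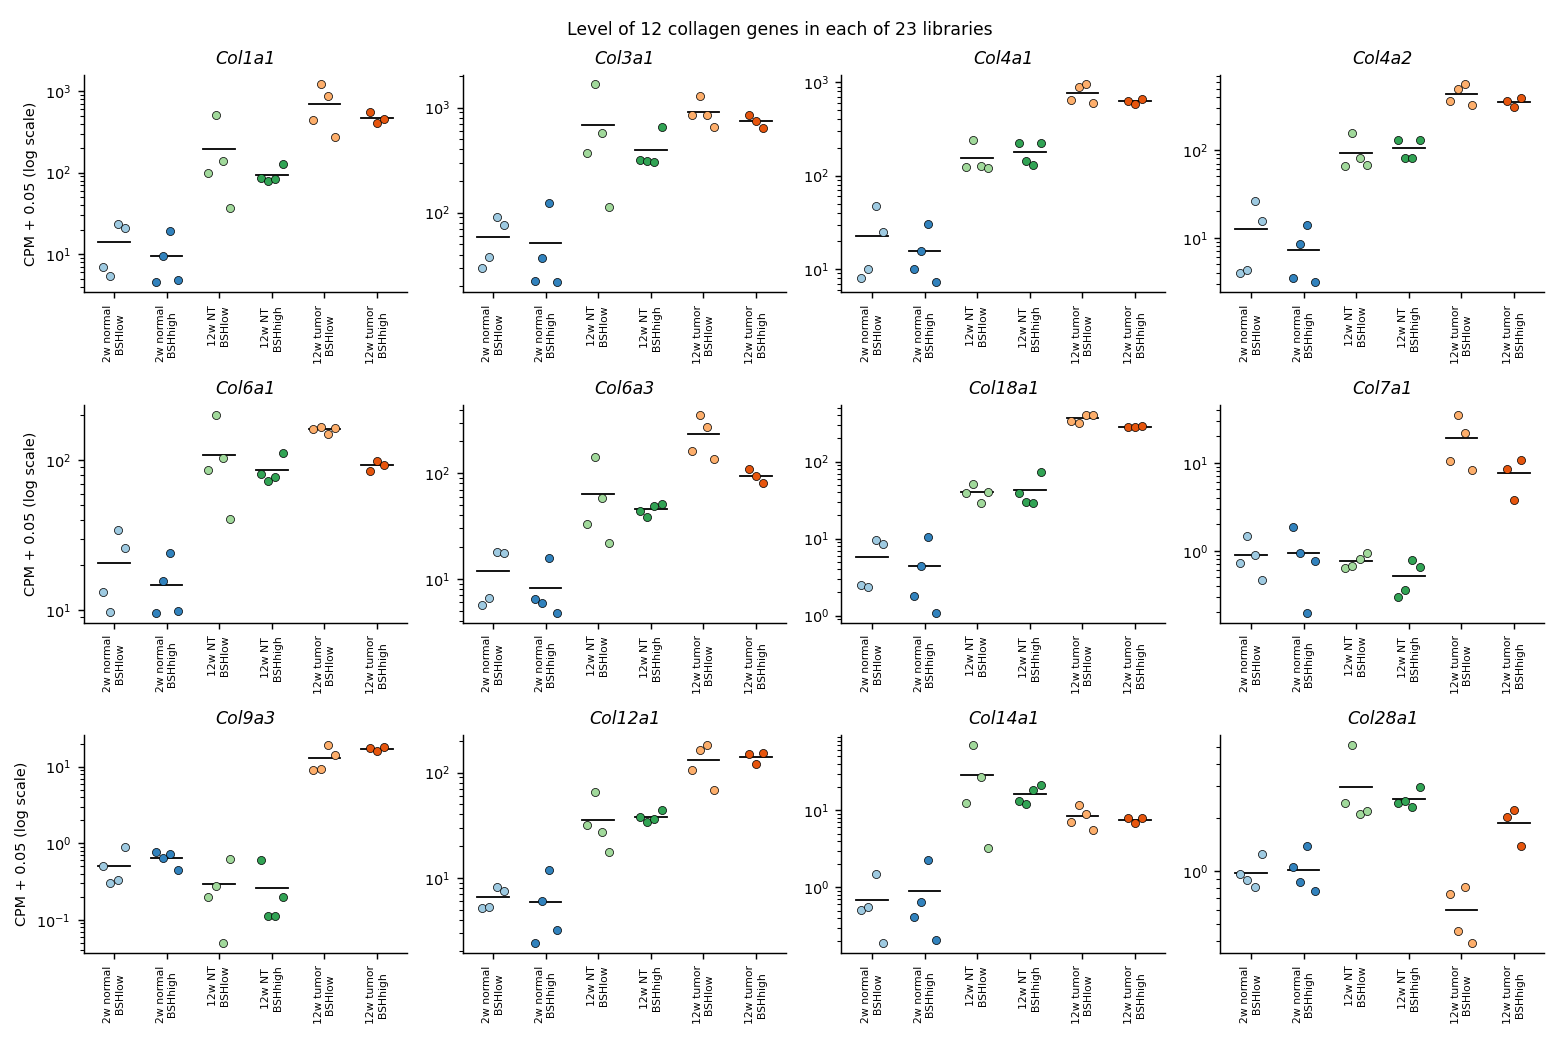
Level of 12 collagen genes in each of the 23 libraries, as CPM plus 0.05 on a log axis, by group. Each point is 1 library and each line the group mean, and the 2-week libraries are low for most members, while *Col28a1* and, apart from BSHlow non-tumor replicate 4 at 3.16 CPM, *Col14a1* are higher in non-tumor tissues than in most tumors.

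Tumors were compared with the non-tumor tissue of the same bacterial group to ask which collagens the tumors carry. In both bacterial groups tumors held more of the basement membrane chains *Col4a1*, *Col4a2* and *Col18a1*, the anchoring fibril chain *Col7a1*, the type IX chains *Col9a1*, *Col9a2* and *Col9a3* and the fibrillar chain *Col5a3*, and less of *Col4a5* and *Col4a6*. A member was called higher or lower when edgeR's quasi-likelihood test gave a Benjamini-Hochberg adjusted p under 0.05 over all genes and the log2 fold change exceeded 1 in size. Of the 44 members 37 had enough counts to be tested, the chance of which depends on their level in either tissue. In BSHlow mice 22 were higher and 8 lower in tumors, where 16.5% and 19.3% of all 16454 genes tested were called higher and lower. In BSHhigh mice 22 were higher and 3 lower, against 14.3% and 14.6% of all genes. The median log2 fold change of the tested members was 1.46 in BSHlow and 1.37 in BSHhigh mice, against 0.04 and 0.04 over all genes. Higher in tumors without overlap were 43.2% of the members in BSHlow and 64.9% in BSHhigh mice, against 29.3% and 32.2% of all genes. Lower without overlap were 5.41% and 16.2%, against 27.7% and 29.0% of all genes. The comparisons share no library but came from 1 fit of the 15 libraries of 12 weeks. In both, 20 members were higher, 90.9% of each list. *Col4a5*, *Col4a6* and *Col11a1* were lower in both, 37.5% of the BSHlow and all of the BSHhigh list. The share of all called genes that were called in both groups is not given here, so these overlaps are not read as particular to collagens. In bulk tissue, fewer cells of a type and less RNA per cell cannot be told apart.

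The type IV network split. Of its 4 tested chains *Col4a1* and *Col4a2* were higher and *Col4a5* and *Col4a6* lower in tumors of both groups. *Col4a1* stood at 124, 242, 126 and 119.5 CPM in the BSHlow non-tumor tissues and at 648, 882, 949 and 594 CPM in the BSHlow tumors. For *Col4a1*, BSHhigh mice gave 224, 143, 129.98 and 222 CPM in non-tumor tissues and 635, 589.6 and 662 CPM in tumors. No tumor overlapped a non-tumor tissue in either group. *Col4a1* had a tumor to non-tumor log2 fold change of 2.32 ± 0.25, adjusted p = 2.24e-06 in BSHlow mice and 1.80 ± 0.26, adjusted p = 5.39e-05 in BSHhigh mice. *Col4a2* stood at 65.7, 158, 82.02 and 66.99 CPM in the BSHlow non-tumor tissues and at 358, 496, 558 and 327 CPM in the BSHlow tumors. For *Col4a2*, BSHhigh mice gave 132, 80.9, 80.2 and 131 CPM in non-tumor tissues and 364, 310.1 and 389 CPM in tumors. Tumors were again above all non-tumor tissues. *Col4a2* had a tumor to non-tumor log2 fold change of 2.21 ± 0.28, adjusted p = 1.04e-05 in BSHlow mice and 1.74 ± 0.29, adjusted p = 1.95e-04 in BSHhigh mice.

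*Col4a5* and *Col4a6*, X-linked chains of a second type IV molecule found in the sheath of smooth muscle cells and some epithelia, moved the other way. *Col4a5* stood at 15.1, 22.4, 15.1 and 7.49 CPM in the BSHlow non-tumor tissues and at 11.5, 4.41, 6.15 and 5.82 CPM in the BSHlow tumors. For *Col4a5*, BSHhigh mice gave 12.6, 16.5, 9.82 and 14.2 CPM in non-tumor tissues and 4.24, 8.53 and 4.01 CPM in tumors. The groups overlapped in BSHlow and not in BSHhigh mice. *Col4a5* had a tumor to non-tumor log2 fold change of -1.09 ± 0.36, adjusted p = 0.0145 in BSHlow mice and -1.23 ± 0.39, adjusted p = 0.0156 in BSHhigh mice. The BSHlow call was lost without BSHlow non-tumor replicate 2 (-0.85, adjusted p = 0.0560) or BSHlow tumor replicate 2 (-0.95, adjusted p = 0.0410), and the BSHhigh call without BSHhigh tumor replicate a (-1.08, adjusted p = 0.0625) or BSHhigh tumor replicate c (-1.04, adjusted p = 0.0728). *Col4a6* stood at 6.52, 10.9, 7.09 and 2.45 CPM in the BSHlow non-tumor tissues and at 2.11, 0.308, 0.572 and 0.929 CPM in the BSHlow tumors. For *Col4a6*, BSHhigh mice gave 5.63, 4.86, 3.15 and 4.34 CPM in non-tumor tissues and 0.517, 0.893 and 0.191 CPM in tumors. All tumors were below all non-tumor tissues. *Col4a6* had a tumor to non-tumor log2 fold change of -2.65 ± 0.55, adjusted p = 6.94e-04 in BSHlow mice and -2.83 ± 0.62, adjusted p = 0.00146 in BSHhigh mice. *Col4a3* and *Col4a4*, chains of the kidney filter, were too low to test, with no group mean above 0.183 and 0.197 CPM.

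**Figure D2:**
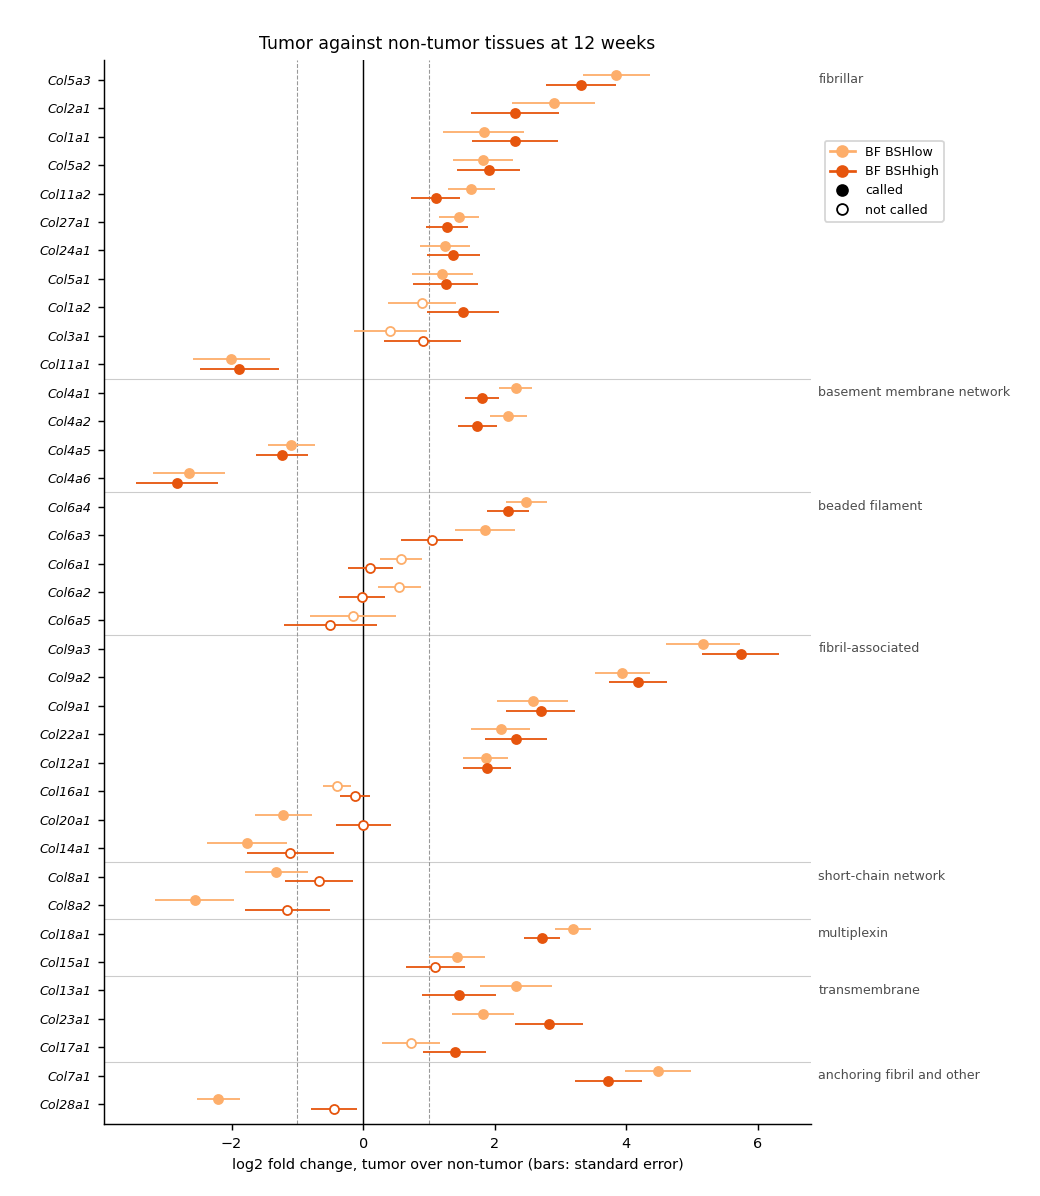
Tumor to non-tumor log2 fold change of the 37 tested collagen genes in BSHlow and BSHhigh mice, with bars for the standard error and filled symbols for members called. Most members lie to the right of 0 in both groups, from *Col9a3* at 5.17 and 5.74, while *Col4a6* lies farthest to the left.

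All 11 fibrillar chains were tested, and 8 in BSHlow and 9 in BSHhigh mice were higher in tumors, with *Col11a1* lower in both. Type I collagen, the main fibre of bone, skin and scar, has 2 *Col1a1* chains for each *Col1a2* chain. *Col1a1* stood at 98.9, 509, 137 and 36.6 CPM in the BSHlow non-tumor tissues and at 447, 1207, 872 and 271 CPM in the BSHlow tumors. For *Col1a1*, BSHhigh mice gave 87.1, 79.8, 84.7 and 127 CPM in non-tumor tissues and 549.6, 405 and 459 CPM in tumors. The BSHlow groups overlapped through non-tumor replicate 2, and the BSHhigh groups did not. *Col1a1* had a tumor to non-tumor log2 fold change of 1.83 ± 0.62, adjusted p = 0.0177 in BSHlow mice and 2.31 ± 0.66, adjusted p = 0.00813 in BSHhigh mice. The BSHlow call of *Col1a1* was lost without BSHlow non-tumor replicate 1 (1.61, adjusted p = 0.0518) or BSHlow tumor replicate 2 (1.41, adjusted p = 0.0698). *Col1a2* stood at 149.9, 623, 224 and 51.3 CPM in the BSHlow non-tumor tissues and at 396, 652, 613 and 296 CPM in the BSHlow tumors. For *Col1a2*, BSHhigh mice gave 137, 118, 139.7 and 211 CPM in non-tumor tissues and 486, 439 and 383 CPM in tumors. Only BSHlow non-tumor replicate 2 reached into the range of its tumors. *Col1a2* had a tumor to non-tumor log2 fold change of 0.89 ± 0.51, adjusted p = 0.140 in BSHlow mice and 1.52 ± 0.55, adjusted p = 0.0295 in BSHhigh mice. In BSHlow mice limma-voom called *Col1a2* higher (1.35, adjusted p = 0.0372). So did an edgeR fit of the 2 BSHlow groups with a block for the replicate number (1.34, adjusted p = 0.0259). In BSHlow mice without non-tumor replicate 2 the value of *Col1a2* was 1.77 ± 0.41, adjusted p = 0.00200, while the BSHhigh call was lost in 6 of 7 fits that left out 1 library, without BSHhigh non-tumor replicates 1, 2 or 3 or BSHhigh tumor replicates a, b or c (log2 fold change 1.41 to 1.60, adjusted p = 0.0518 to 0.0730, 1 library left out at a time). Those 7 fits kept the BSHlow libraries, non-tumor replicate 2 among them, whose spread enters the shared estimate.

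The ratio of *Col1a1* to *Col1a2* per kilobase was 0.552 to 0.737 in BSHlow and 0.542 to 0.610 in BSHhigh non-tumor tissues and 0.825 to 1.67 and 0.833 to 1.08 in the tumors. All 7 tumors were above all 8 non-tumor tissues, and the 2-week colons ranged over 0.330 to 0.589 and 0.369 to 0.465. The ratio is a description and was given no test.

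*Col3a1*, the member with the highest level per kilobase, was not called in either group. *Col3a1* stood at 367, 1659, 578 and 112 CPM in the BSHlow non-tumor tissues and at 845, 1289, 840.2 and 649.6 CPM in the BSHlow tumors. For *Col3a1*, BSHhigh mice gave 318, 310.3, 305 and 657 CPM in non-tumor tissues and 850.4, 753 and 640.2 CPM in tumors. BSHlow non-tumor replicate 2 was the highest of its group and above every tumor, and BSHhigh non-tumor replicate 4 overlapped the tumors. *Col3a1* had a tumor to non-tumor log2 fold change of 0.41 ± 0.55, adjusted p = 0.526 in BSHlow mice and 0.90 ± 0.59, adjusted p = 0.205 in BSHhigh mice. Without BSHlow non-tumor replicate 2 the log2 fold change of *Col3a1* was 1.34 ± 0.44, adjusted p = 0.0173, which would pass both limits.

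Type V collagen chains are built into type I fibrils and set their width. *Col5a3* moved most among the fibrillar chains. *Col5a3* stood at 5.93, 12.2, 6.82 and 4.84 CPM in the BSHlow non-tumor tissues and at 55.1, 206, 145 and 37.4 CPM in the BSHlow tumors. For *Col5a3*, BSHhigh mice gave 4.50, 3.74, 2.67 and 7.33 CPM in non-tumor tissues and 49.7, 33.7 and 54.8 CPM in tumors. The tumors did not overlap the non-tumor tissues. *Col5a3* had a tumor to non-tumor log2 fold change of 3.85 ± 0.51, adjusted p = 1.38e-05 in BSHlow mice and 3.31 ± 0.53, adjusted p = 1.2e-04 in BSHhigh mice. *Col5a2* stood at 40.9, 159.5, 59.9 and 22.3 CPM in the BSHlow non-tumor tissues and at 194, 367, 293 and 152 CPM in the BSHlow tumors. For *Col5a2*, BSHhigh mice gave 58.1, 41.7, 43.95 and 69.9 CPM in non-tumor tissues and 227, 179 and 199 CPM in tumors. BSHlow non-tumor replicate 2 alone overlapped the tumors. *Col5a2* had a tumor to non-tumor log2 fold change of 1.82 ± 0.46, adjusted p = 0.00298 in BSHlow mice and 1.91 ± 0.48, adjusted p = 0.00399 in BSHhigh mice. *Col5a1* had a tumor to non-tumor log2 fold change of 1.20 ± 0.46, adjusted p = 0.0330 in BSHlow mice and 1.25 ± 0.49, adjusted p = 0.0421 in BSHhigh mice. The *Col5a1* call was the weakest, lost in 5 of 8 BSHlow fits, without BSHlow non-tumor replicates 1, 3 or 4 or BSHlow tumor replicates 2 or 3 (log2 fold change 0.91 to 1.16, adjusted p = 0.0697 to 0.119, 1 library left out at a time). It was lost in 6 of 7 BSHhigh fits, without BSHhigh non-tumor replicates 1, 2 or 3 or BSHhigh tumor replicates a, b or c (log2 fold change 1.15 to 1.31, adjusted p = 0.0761 to 0.0952, 1 library left out at a time). These BSHhigh fits, too, all held BSHlow non-tumor replicate 2.

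The cartilage fibril chains were low. *Col2a1*, the main chain of cartilage, had no count in any BSHlow non-tumor library and 1.28, 0.564, 1.002 and 0.0489 CPM in the BSHlow tumors, at least 3.65-fold higher against a floor of 3 counts per library. In BSHhigh mice *Col2a1* stood at 0, 0.125, 0 and 0 CPM in non-tumor tissues and 0.362, 0.581 and 0.858 CPM in tumors. *Col11a1* stood at 0.222, 1.20, 0.545 and 0.710 CPM in the BSHlow non-tumor tissues and at 0.245, 0, 0.0954 and 0 CPM in the BSHlow tumors. For *Col11a1*, BSHhigh mice gave 0.688, 0.249, 0.424 and 0.299 CPM in non-tumor tissues and 0, 0.0893 and 0 CPM in tumors. *Col11a1* had a tumor to non-tumor log2 fold change of -2.004 ± 0.59, adjusted p = 0.00799 in BSHlow mice and -1.88 ± 0.60, adjusted p = 0.0159 in BSHhigh mice. The BSHhigh call of *Col11a1* was lost without BSHhigh tumor replicate a (-1.75, adjusted p = 0.0554) or BSHhigh tumor replicate c (-1.73, adjusted p = 0.0641), and without BSHlow non-tumor replicate 2 the gene did not pass the filter. *Col11a2*, *Col24a1* and *Col27a1* were higher in both groups, by 1.64, 1.25 and 1.46 in BSHlow and 1.10, 1.37 and 1.28 in BSHhigh mice on the log2 scale. The *Col24a1* call was lost without BSHlow non-tumor replicate 4 (0.996, adjusted p = 0.0226) or BSHlow tumor replicate 1 (0.99, adjusted p = 0.0381), through the fold limit, and the BSHhigh call of *Col11a2* without BSHhigh non-tumor replicates 2 or 3 or BSHhigh tumor replicate c (log2 fold change 0.78 to 1.04, adjusted p = 0.0502 to 0.126, 1 library left out at a time).

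Type VI filaments are assembled from *Col6a1*, *Col6a2* and 1 further chain, mostly *Col6a3*. Of 5 tested chains *Col6a3* and *Col6a4* were higher in BSHlow tumors, and *Col6a4* alone passed in BSHhigh tumors. *Col6a3* stood at 32.9, 143, 58.4 and 21.8 CPM in the BSHlow non-tumor tissues and at 164, 359, 275 and 137 CPM in the BSHlow tumors. For *Col6a3*, BSHhigh mice gave 43.6, 38.6, 48.5 and 51.5 CPM in non-tumor tissues and 109, 93.8 and 81.4 CPM in tumors. The groups overlapped in BSHlow mice and not in BSHhigh mice. *Col6a3* had a tumor to non-tumor log2 fold change of 1.86 ± 0.46, adjusted p = 0.00249 in BSHlow mice and 1.05 ± 0.48, adjusted p = 0.0752 in BSHhigh mice. An edgeR fit of only the 2 BSHhigh groups called *Col6a3* higher (1.04, adjusted p = 3.33e-04). *Col6a1* stood at 85.9, 202, 103 and 40.5 CPM in the BSHlow non-tumor tissues and at 161, 168, 149 and 165 CPM in the BSHlow tumors. For *Col6a1*, BSHhigh mice gave 80.4, 73.04, 77.7 and 113 CPM in non-tumor tissues and 85.4, 99.3 and 93.5 CPM in tumors. Its groups overlapped on both sides. *Col6a1* had a tumor to non-tumor log2 fold change of 0.57 ± 0.32, adjusted p = 0.129 in BSHlow mice and 0.10 ± 0.34, adjusted p = 0.815 in BSHhigh mice. *Col6a2* stood at 76.7, 175, 92.8 and 35.6 CPM in the BSHlow non-tumor tissues and at 128, 158, 117 and 157 CPM in the BSHlow tumors. For *Col6a2*, BSHhigh mice gave 72.3, 64.1, 65.1 and 106 CPM in non-tumor tissues and 70.9, 83.3 and 73.97 CPM in tumors. *Col6a2* followed *Col6a1*. *Col6a2* had a tumor to non-tumor log2 fold change of 0.55 ± 0.33, adjusted p = 0.153 in BSHlow mice and -0.02 ± 0.35, adjusted p = 0.965 in BSHhigh mice. Without BSHlow non-tumor replicate 2, *Col6a1* (1.05 ± 0.24, adjusted p = 0.00173) and *Col6a2* (1.02 ± 0.26, adjusted p = 0.00443) would both be called higher in BSHlow tumors. Per kilobase, *Col6a3* was at 0.155 to 0.286 of *Col6a1* in BSHlow and 0.186 to 0.253 in BSHhigh non-tumor tissues and at 0.336 to 0.866 and 0.353 to 0.516 in the tumors, whereas *Col6a1* and *Col6a2* stayed within 0.933 to 1.35 of each other. *Col6a4* rose by 2.48 ± 0.31 and 2.20 ± 0.32, from 10.9 ± 5.45 to 61.6 ± 21.2 CPM (mean ± SD, n = 4 and 4) and from 13.4 ± 2.14 to 62.5 ± 2.26 CPM (n = 4 and 3). *Col6a5* was not called (-0.16 and -0.50), and *Col6a6* was never tested, with at most 0.0945 CPM as a group mean.

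The largest rises were in collagens of cartilage fibrils and of epithelial anchoring. *Col9a3* (ENSMUSG00000027570.15, chr2:180597790-180622189, plus strand) and *Col9a2* code for chains of type IX collagen, which coats type II fibrils in cartilage. *Col9a3* stood at 0.148, 0.229, 0 and 0.581 CPM in the BSHlow non-tumor tissues and at 8.89, 9.13, 19.2 and 14.03 CPM in the BSHlow tumors. For *Col9a3*, BSHhigh mice gave 0.563, 0.0623, 0.0606 and 0.150 CPM in non-tumor tissues and 17.6, 15.99 and 17.9 CPM in tumors. *Col9a3* had a tumor to non-tumor log2 fold change of 5.17 ± 0.56, adjusted p = 2.11e-06 in BSHlow mice and 5.74 ± 0.58, adjusted p = 2.94e-06 in BSHhigh mice. Every tumor was above every non-tumor tissue. *Col9a2* stood at 1.41, 1.49, 1.09 and 2.71 CPM in the BSHlow non-tumor tissues and at 23.02, 18.1, 18.2 and 51.1 CPM in the BSHlow tumors. For *Col9a2*, BSHhigh mice gave 0.688, 1.56, 1.09 and 1.12 CPM in non-tumor tissues and 13.97, 29.5 and 23.1 CPM in tumors. *Col9a2* had a tumor to non-tumor log2 fold change of 3.94 ± 0.42, adjusted p = 1.73e-06 in BSHlow mice and 4.18 ± 0.44, adjusted p = 3.87e-06 in BSHhigh mice. The third chain gene, *Col9a1*, rose by 2.58 ± 0.54 and 2.70 ± 0.52, and as it had no count in BSHhigh non-tumor tissues its rise there was at least 3.17-fold against 3 counts per library. *Tcfl5*, which overlaps *Col9a3* on the opposite strand, reached at most 1 count in any library against 403 for *Col9a3*.

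*Col7a1* (ENSMUSG00000025650.13, chr9:108953586-108984875, plus strand) is the anchoring fibril chain that ties the basement membrane of stratified epithelia to the tissue beneath. *Col7a1* stood at 0.593, 0.630, 0.750 and 0.904 CPM in the BSHlow non-tumor tissues and at 10.4, 35.1, 21.7 and 8.16 CPM in the BSHlow tumors. For *Col7a1*, BSHhigh mice gave 0.250, 0.311, 0.728 and 0.599 CPM in non-tumor tissues and 8.43, 3.75 and 10.7 CPM in tumors. The tumors lay well above all non-tumor tissues. *Col7a1* had a tumor to non-tumor log2 fold change of 4.48 ± 0.50, adjusted p = 2.85e-06 in BSHlow mice and 3.72 ± 0.51, adjusted p = 3.5e-05 in BSHhigh mice. *Col17a1*, the hemidesmosome collagen of basal keratinocytes, was low. *Col17a1* stood at 0.297, 0.687, 0.273 and 0.387 CPM in the BSHlow non-tumor tissues and at 0.491, 0.821, 0.429 and 1.32 CPM in the BSHlow tumors. For *Col17a1*, BSHhigh mice gave 0.188, 0.311, 0.970 and 0.599 CPM in non-tumor tissues and 1.76, 1.83 and 1.05 CPM in tumors. *Col17a1* had a tumor to non-tumor log2 fold change of 0.72 ± 0.44, adjusted p = 0.167 in BSHlow mice and 1.39 ± 0.48, adjusted p = 0.0224 in BSHhigh mice. The BSHhigh call was lost without BSHhigh non-tumor replicates 1 or 2 or BSHhigh tumor replicates a or b (log2 fold change 1.15 to 1.29, adjusted p = 0.0589 to 0.0730, 1 library left out at a time). Beside them, 8 squamous epithelium markers summed to 1.48 to 2.65 and 1.69 to 3.40 CPM in BSHlow and BSHhigh non-tumor tissues and to 73.8 to 175 and 34.4 to 52.6 CPM in the tumors. All 5 that could be tested were higher in BSHlow tumors and 4 of 5 in BSHhigh tumors, *Tmprss11b* and *Sprr3* were at 0 in all non-tumor libraries, and *Krt5* and *Sprr3* at 0 in all BSHhigh tumors. *Krt5* did not rise, with 1, 7, 1 and 0 counts in BSHlow and 3, 7, 2 and 2 in BSHhigh non-tumor tissues. It had 0, 4, 1 and 0 counts in BSHlow tumors. *Trp63* had at most 4 counts in any tumor and at most 1 in any non-tumor tissue. Their part in the *Col7a1* and *Col17a1* values was not tested.

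Both multiplexins, basement membrane collagens with a cleavable end domain, were higher in BSHlow tumors. *Col18a1* (ENSMUSG00000001435.15, chr10:77052178-77166548, minus strand), the source of endostatin, had the smallest p of the family in BSHlow mice. *Col18a1* stood at 39, 50.8, 28.8 and 40.2 CPM in the BSHlow non-tumor tissues and at 339.7, 315, 405 and 408 CPM in the BSHlow tumors. For *Col18a1*, BSHhigh mice gave 39.1, 29.5, 29.04 and 74.2 CPM in non-tumor tissues and 283, 281 and 289 CPM in tumors. No values overlapped. *Col18a1* had a tumor to non-tumor log2 fold change of 3.19 ± 0.27, adjusted p = 2.36e-07 in BSHlow mice and 2.72 ± 0.28, adjusted p = 3.0e-06 in BSHhigh mice. *Col15a1* stood at 24.02, 46.7, 19.98 and 9.16 CPM in the BSHlow non-tumor tissues and at 43.9, 98.8, 93.4 and 35.3 CPM in the BSHlow tumors. For *Col15a1*, BSHhigh mice gave 25.8, 11.4, 14.2 and 22.2 CPM in non-tumor tissues and 42.99, 38.7 and 37.1 CPM in tumors. *Col15a1*, a collagen of muscle and capillary basement membranes, overlapped in BSHlow but not in BSHhigh mice. *Col15a1* had a tumor to non-tumor log2 fold change of 1.42 ± 0.43, adjusted p = 0.00892 in BSHlow mice and 1.10 ± 0.45, adjusted p = 0.0513 in BSHhigh mice. Without BSHhigh non-tumor replicate 1 *Col15a1* was also called higher in BSHhigh mice (1.30, adjusted p = 0.0413). DESeq2, limma-voom, edgeR with upper-quartile scaling and edgeR with only the 2 BSHhigh groups called it higher too (log2 fold change 1.04 to 1.18, adjusted p = 0.00607 to 0.0477).

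Of the collagens that decorate type I fibrils, *Col12a1* was higher and *Col14a1* lower or not called. *Col12a1* stood at 31.9, 65.2, 27.5 and 17.4 CPM in the BSHlow non-tumor tissues and at 107, 162, 183 and 68.8 CPM in the BSHlow tumors. For *Col12a1*, BSHhigh mice gave 37.6, 33.9, 35.8 and 43.9 CPM in non-tumor tissues and 150.1, 119 and 152 CPM in tumors. *Col12a1* had a tumor to non-tumor log2 fold change of 1.86 ± 0.34, adjusted p = 2.78e-04 in BSHlow mice and 1.88 ± 0.36, adjusted p = 5.39e-04 in BSHhigh mice. All tumors were above all non-tumor tissues for *Col12a1*. *Col14a1* stood at 12.2, 70.6, 27.2 and 3.16 CPM in the BSHlow non-tumor tissues and at 7.02, 11.8, 8.78 and 5.52 CPM in the BSHlow tumors. For *Col14a1*, BSHhigh mice gave 13.1, 12.1, 18.2 and 21.3 CPM in non-tumor tissues and 7.81, 6.70 and 7.96 CPM in tumors. BSHlow non-tumor replicate 2 was far above the rest of its group and replicate 4 below every tumor. *Col14a1* had a tumor to non-tumor log2 fold change of -1.77 ± 0.60, adjusted p = 0.0191 in BSHlow mice and -1.11 ± 0.66, adjusted p = 0.166 in BSHhigh mice. With only the 2 BSHhigh groups in the edgeR fit *Col14a1* was called lower there (-1.11, adjusted p = 0.00302). The BSHlow call of *Col14a1* was lost without BSHlow non-tumor replicate 2 (-0.79, adjusted p = 0.166) or BSHlow tumor replicate 4 (-1.63, adjusted p = 0.0505). *Col22a1*, a collagen of tissue junctions, rose by 2.09 ± 0.45 and 2.33 ± 0.47, and *Col16a1* was not called at -0.40 and -0.12. *Col20a1* was called lower in BSHlow mice only (-1.21 ± 0.43, adjusted p = 0.0226), and lost the call without BSHlow non-tumor replicates 1 or 2 or BSHlow tumor replicate 2 (log2 fold change -1.13 to -1.04, adjusted p = 0.0506 to 0.0602, 1 library left out at a time).

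Among the transmembrane collagens *Col23a1* had the highest mean level per kilobase in every group of 12 weeks. *Col23a1* stood at 5.34, 4.87, 3.48 and 6.07 CPM in the BSHlow non-tumor tissues and at 17.9, 8.36, 5.87 and 39.4 CPM in the BSHlow tumors. For *Col23a1*, BSHhigh mice gave 2.69, 2.55, 1.76 and 2.62 CPM in non-tumor tissues and 11.7, 17.2 and 24.4 CPM in tumors. The tumors spread widely in both groups, and only the lowest BSHlow tumor overlapped its non-tumor tissues. *Col23a1* had a tumor to non-tumor log2 fold change of 1.82 ± 0.48, adjusted p = 0.00378 in BSHlow mice and 2.83 ± 0.52, adjusted p = 3.82e-04 in BSHhigh mice. *Col13a1*, known from the neuromuscular junction, was higher in both groups (2.32 ± 0.55, adjusted p = 0.00194 and 1.45 ± 0.56, adjusted p = 0.0400), but lost the BSHhigh call without BSHhigh non-tumor replicates 2 or 3 or BSHhigh tumor replicates a or b (log2 fold change 1.16 to 1.48, adjusted p = 0.0733 to 0.121, 1 library left out at a time).

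The remaining lower members were of low level. *Col28a1* stood at 2.37, 5.10, 2.05 and 2.13 CPM in the BSHlow non-tumor tissues and at 0.687, 0.410, 0.763 and 0.342 CPM in the BSHlow tumors. For *Col28a1*, BSHhigh mice gave 2.38, 2.43, 2.24 and 2.92 CPM in non-tumor tissues and 1.97, 2.14 and 1.34 CPM in tumors. *Col28a1*, a basement membrane collagen of peripheral nerve, had no overlap between tumors and non-tumor tissues in either group. *Col28a1* had a tumor to non-tumor log2 fold change of -2.20 ± 0.33, adjusted p = 4.87e-05 in BSHlow mice and -0.44 ± 0.35, adjusted p = 0.299 in BSHhigh mice. *Col8a2* stood at 1.41, 3.61, 1.43 and 0.323 CPM in the BSHlow non-tumor tissues and at 0.147, 0.154, 0.477 and 0 CPM in the BSHlow tumors. For *Col8a2*, BSHhigh mice gave 2.38, 1.18, 1.76 and 1.87 CPM in non-tumor tissues and 0.724, 0.759 and 0.763 CPM in tumors. *Col8a2*, a short-chain collagen of Descemet's membrane and vessels, overlapped in BSHlow mice. *Col8a2* had a tumor to non-tumor log2 fold change of -2.56 ± 0.61, adjusted p = 0.00195 in BSHlow mice and -1.15 ± 0.65, adjusted p = 0.144 in BSHhigh mice. With only the 2 BSHhigh groups in the edgeR fit *Col8a2* was called lower there (-1.15, adjusted p = 0.00944). Its partner *Col8a1* was lower in BSHlow mice (-1.32 ± 0.48, adjusted p = 0.0248), a call lost without BSHlow non-tumor replicate 2 or BSHlow tumor replicates 1 or 2 (log2 fold change -1.23 to -0.44, adjusted p = 0.0618 to 0.235, 1 library left out at a time). Markers of enteric glia moved the same way, with 4 of 4 called lower in BSHlow and 3 of 4 in BSHhigh tumors, summing to 5.86 to 13.3 and 4.79 to 7.25 CPM in non-tumor tissues and 0.359 to 1.96 and 0.931 to 1.43 CPM in tumors, with *Sox10* at 0 in all BSHlow tumors. Their part in the *Col28a1* values was not tested.

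Leaving out BSHlow non-tumor replicate 2 gave 26 members higher and 3 lower of 36 tested in BSHlow mice. *Col1a2*, *Col3a1*, *Col6a1* and *Col6a2* were then called higher, and *Col4a5*, *Col8a1*, *Col14a1* and *Col20a1* were no longer called lower. Without BSHlow tumor replicate 2 there were 20 higher and 5 lower. In BSHhigh mice 1 member was called lower without tumor replicate a or c. Over all fits that left out 1 library, 19 of the 22 BSHlow and 17 of the 22 BSHhigh members called higher kept the call wherever they were tested, as did 4 of 8 and 1 of 3 of those called lower. Only libraries of the groups compared were left out. The BSHhigh fits therefore always kept BSHlow non-tumor replicate 2, and how far its spread weakened the BSHhigh calls was not tested.

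Smooth muscle and most fibroblast markers were lower in tumors, and some endothelial and pericyte markers were higher. The 8 smooth muscle markers were all called lower in tumors of both groups and summed to 1483 to 8186 and 3185 to 4144 CPM in BSHlow and BSHhigh non-tumor tissues and 188 to 258 and 202 to 333 CPM in tumors. Of 6 colon epithelium markers 4 were lower in BSHlow and 1 in BSHhigh tumors, *Krt20* in both (-4.61 and -1.21), and *Cdx2* gave -3.77, called, and -1.29, not called. Of 6 fibroblast markers, 4 were lower and 1 higher in each comparison, with sums of 544 to 1103 and 606 to 683 CPM in non-tumor tissues and 334 to 433 and 346 to 419.7 CPM in tumors. Endothelial markers were higher for 2 of 6 in each group (67.2 to 102 and 51 to 107 CPM in non-tumor tissues, 156 to 174 and 142 to 167 in tumors), and pericyte markers for 2 of 4 (81.8 to 155 and 91.1 to 187, 167 to 219 and 158 to 186). No smooth muscle, colon epithelium, fibroblast, endothelial or pericyte marker was at 0 throughout a group. Their part in the collagen values was not tested.

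**Figure D3:**
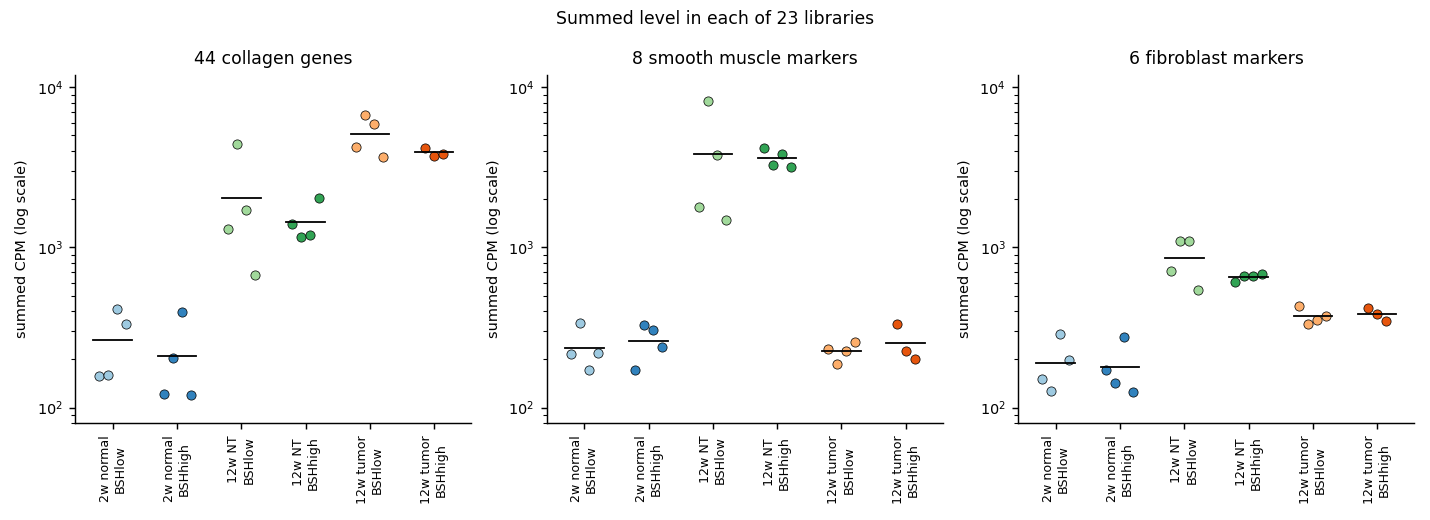
Summed CPM of the 44 collagen genes, 8 smooth muscle markers and 6 fibroblast markers in each library, by group, on a log axis. Tumors span 3642 to 6754 CPM of collagen, a range that BSHlow non-tumor replicate 2 also reaches at 4430 CPM, whereas both marker sums are highest in the non-tumor tissues of 12 weeks.

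The tumors of BSHhigh mice were next set against those of BSHlow mice, the comparison that addresses the bacterial enzyme. No member was called in either direction among the 36 tested, where 0.463% of all 15325 genes were called higher and 0.0131% lower in BSHhigh tumors. At an unadjusted p under 0.05 with the same fold limit 2 members were higher and 2 lower. The share of all genes past this unadjusted limit is not given here. Such counts, here and below, are therefore not read as particular to the members or to the marker lists. DESeq2 called *Col28a1* higher and *Col6a3* lower, edgeR with all 15 libraries of 12 weeks in 1 fit called *Col28a1* higher, and limma-voom called none. The log2 fold change was below 0 for 25 members and above 0 for 11, with a median of -0.29, against -0.03 over all genes. Leaving out 1 library gave medians of -0.35 to -0.18, the latter without BSHhigh tumor replicate a.

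The type VI chains *Col6a1* and *Col6a2* had the smallest adjusted p values, and passed the p limit without reaching the fold limit. *Col6a1* (ENSMUSG00000001119.7, chr10:76708792-76726168, minus strand) was at 161, 168, 149 and 165 CPM in BSHlow and 85.4, 99.3 and 93.5 CPM in BSHhigh tumors, without overlap, a log2 fold change of -0.81 ± 0.09, adjusted p = 0.0290. *Col6a2* (ENSMUSG00000020241.13, chr10:76595762-76623630, minus strand) was at 128, 158, 117 and 157 and 70.9, 83.3 and 73.97 CPM, also without overlap (-0.89 ± 0.13, adjusted p = 0.0421). *Col6a3* was at 164, 359, 275 and 137 and 109, 93.8 and 81.4 CPM, again without overlap, and here the fold limit was passed but not the p limit (-1.31 ± 0.32, adjusted p = 0.118). With the p limit alone 2 members, *Col6a1* and *Col6a2*, would be counted as lower, when 0.0392% of all genes would be. This choice was made after the values were seen. The adjusted p of *Col6a1* was 0.0262 to 0.104 over the 7 fits that left out 1 library and stayed under 0.05 in 1 of them, without BSHhigh tumor replicate c, and that of *Col6a2* was 0.0549 to 0.137. In the fit of all 15 libraries of 12 weeks they were 0.293 and 0.249, with DESeq2 3.86e-13 and 4.78e-07, and with limma-voom 0.0239 and 0.0481. The 15-library fit also takes the spread of the non-tumor tissues, BSHlow replicate 2 among them.

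With the 3 type VI chains, 4 of 36 members were lower and 2 higher without overlap (11.1% and 5.56%), as were 3.89% and 7.93% of all 15325 genes. The other 3 were *Col18a1*, *Col28a1* and *Col8a2*. *Col18a1* was lower in all BSHhigh than in all BSHlow tumors (-0.38 ± 0.12, adjusted p = 0.232). *Col28a1* (1.55 ± 0.36, adjusted p = 0.101) and *Col8a2* (1.53 ± 0.61, adjusted p = 0.344) had higher values in all BSHhigh tumors. For *Col28a1* the adjusted p over the alternatives was 0.0202 to 0.365.

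The other abundant or strongly shifted members did not pass the p limit. *Col1a1* gave -0.57 ± 0.45, adjusted p = 0.653, *Col3a1* -0.28 ± 0.22, adjusted p = 0.648 and *Col4a1* -0.30 ± 0.17, adjusted p = 0.540. *Col7a1* was at -1.29 with an adjusted p of 0.388, and *Col5a3* at -1.26 with 0.403. None of these p values shows that the tumors were alike.

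**Figure D4:**
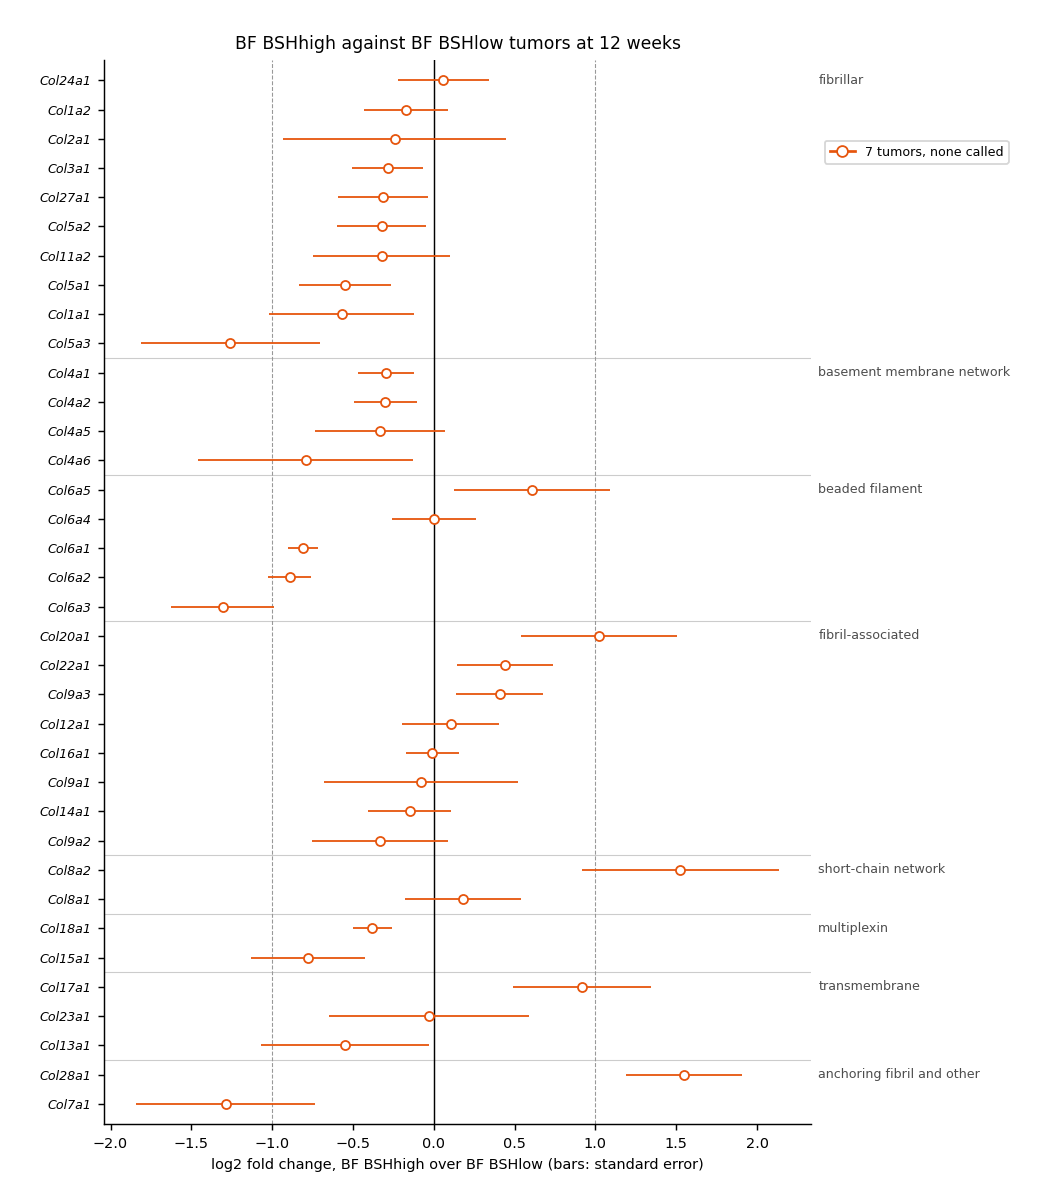
BSHhigh to BSHlow log2 fold change in tumors of the 36 tested collagen genes, with bars for the standard error. No member is called, and *Col6a1* and *Col6a2* have short bars below 0, at -0.81 and -0.89.

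Markers of other cells differed in both directions between these tumors. Squamous markers summed to 73.8 to 175 CPM in BSHlow and 34.4 to 52.6 CPM in BSHhigh tumors, and 1 of 5 tested, *Tmprss11b*, was called lower (-2.65 ± 0.41, adjusted p = 0.0481), while all 5 were lower at an unadjusted p under 0.05 with the fold limit. Mesothelium markers summed to 13.7 to 38.1 and 4.74 to 14.9 CPM, with *Wt1* at 0 in all tumors and the 1 tested, *Msln*, not called but lower at an unadjusted p under 0.05 with the fold limit (-1.46 ± 0.46, adjusted p = 0.226). Of 6 colon epithelium markers 0 were called and 2 were higher at the unadjusted limit, *Krt20* (3.38 ± 0.59, adjusted p = 0.0558), at 10.8 to 30.2 CPM in BSHlow and 80.3 to 456.5 CPM in BSHhigh tumors, and *Cdx2* (3.42 ± 0.96, adjusted p = 0.174), at 0.257 to 1.96 and 2.43 to 27.6 CPM. Neither overlapped, and *Krt20* was called in the interaction (3.40 ± 0.63, adjusted p = 0.0191). Leukocyte markers summed to 44.9 to 135 and 111 to 155 CPM, and of 5 tested 0 were called and 2 were higher at the unadjusted limit, the T cell gene *Cd3e* (2.22 ± 0.68, adjusted p = 0.216) and the B cell gene *Cd79a* (2.22 ± 0.82, adjusted p = 0.298). Pericyte markers summed to 167 to 219 and 158 to 186 CPM. No fibroblast, smooth muscle, endothelial or pericyte marker was called by edgeR, and at an unadjusted p with the fold limit 1 smooth muscle marker was higher and 0 of the others passed. The part of these cells in the type VI values was not tested.

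Without tumors the bacterial groups gave no collagen call either. In non-tumor tissues 30 members were tested and none was called, as was 0% of all 14933 genes in each direction. At an unadjusted p under 0.05 with the fold limit 0 members were higher and 1 lower, *Col23a1*, which DESeq2 also called lower (-1.01 ± 0.23, adjusted p = 0.328 with edgeR), and limma-voom called 0. The median was -0.33, with 22 members below and 8 above 0, but without BSHlow non-tumor replicate 2 it was 0.16, with 6 below and 25 above 0 of 31, and without BSHhigh non-tumor replicate 4 it was -0.49. In normal colon of 2 weeks 26 members were tested and 0 called, when 0.00727% of all 13752 genes were higher and 0% lower, 0 members passed the unadjusted limit in either direction, and DESeq2 and limma-voom called 0. The median there was -0.28, with 21 below and 5 above 0, but it was -0.77 without BSHhigh normal colon replicate 3, -0.10 without BSHhigh replicate 4, -0.13 without BSHlow replicate 3 and -0.19 without BSHhigh replicate 1.

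Whether the tumor to non-tumor difference itself depended on the bacteria was tested as an interaction in the fit of 15 libraries. Of 37 members 0 were called. Of all genes, 0.972% were called with a higher and 0.00608% with a lower tumor to non-tumor log2 fold change in BSHhigh than in BSHlow mice. A higher value can also be a smaller drop. At an unadjusted p under 0.05 with the fold limit 1 member was higher and 0 lower. *Col28a1* had the smallest adjusted p (1.76 ± 0.46, adjusted p = 0.101), and DESeq2 called 1 higher and limma-voom 0. The median over the members was 0.05, with 20 above and 17 below 0. Without BSHlow non-tumor replicate 2 the median was -0.44, with 9 above and 27 below 0 of 36 tested, and 0 were called. The calls listed above for only one bacterial group, such as *Col8a2* and *Col14a1*, were thus not shown to differ between the groups.

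Non-tumor tissue of 12 weeks was compared with normal colon of 2 weeks. The mice of 12 weeks were older, had been longer on HFD, longer with the bacteria and longer off the antibiotics, and their groups had colon tumors. These differences cannot be told apart. Members of the fibrillar, basement membrane and type VI groups were called higher at 12 weeks in both bacterial groups, and the log2 fold change was highest for *Col14a1*, *Col1a1*, *Col5a2* and *Col3a1* in BSHlow and for *Col14a1*, *Col4a2* and *Col4a1* in BSHhigh mice. Of the 44 members 32 were tested. In BSHlow mice 24 were higher and 1 lower at 12 weeks, where 16.7% and 7.82% of all 15532 genes were. In BSHhigh mice 22 were higher and 1 lower, against 16.5% and 7.39%. The 22 were higher in both groups, 91.7% of the BSHlow and all of the BSHhigh list, with *Col4a6* and *Col8a1* added in BSHlow mice. For all called genes this share is not given here either, and the overlap is not read as particular to collagens. The medians were 2.10 and 2.32, against 0.000 and 0.03 over all genes. Higher at 12 weeks without overlap were 62.5% of the members in BSHlow and 68.8% in BSHhigh mice, against 21.6% and 25.1% of all genes. Lower without overlap were 0% and 3.12%, against 18.1% and 22.8% of all genes. Without BSHlow non-tumor replicate 2 there were 21 higher and 0 lower of 32 tested in BSHlow mice, with a median of 1.78. In the fits that left out 1 library, 21 of the 24 BSHlow and all 22 BSHhigh members called higher always kept the call. The BSHlow fold changes of single members below include replicate 2 unless stated. The 12-week values are those given above for non-tumor tissues, and so these results and the tumor results share libraries.

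Fibril chains and the fibril-associated *Col14a1* rose in both groups. *Col14a1* stood at 0.455, 0.500, 1.42 and 0.141 CPM in the BSHlow and at 0.363, 0.589, 2.23 and 0.160 CPM in the BSHhigh normal colons of 2 weeks. *Col14a1* had a 12-week to 2-week log2 fold change of 5.25 ± 0.86, adjusted p = 1.59e-04 in BSHlow mice and 4.04 ± 0.81, adjusted p = 8.36e-04 in BSHhigh mice. The times did not overlap in either group. *Col1a1* stood at 6.83, 5.34, 23.6 and 20.97 CPM in the BSHlow and at 4.45, 9.42, 19.5 and 4.73 CPM in the BSHhigh normal colons of 2 weeks. *Col1a1* had a 12-week to 2-week log2 fold change of 3.76 ± 0.72, adjusted p = 5.84e-04 in BSHlow mice and 3.29 ± 0.72, adjusted p = 0.00156 in BSHhigh mice. Here too every 12-week library was above every 2-week library. *Col1a2* stood at 16.004, 14.6, 37.8 and 32.1 CPM in the BSHlow and at 8.63, 23.05, 39.2 and 10.7 CPM in the BSHhigh normal colons of 2 weeks. *Col1a2* had a 12-week to 2-week log2 fold change of 3.36 ± 0.64, adjusted p = 5.47e-04 in BSHlow mice and 2.88 ± 0.63, adjusted p = 0.00158 in BSHhigh mice. Both type I chains were thus without overlap. *Col3a1* stood at 29.8, 37.5, 90.7 and 76.3 CPM in the BSHlow and at 22.2, 37.3, 123 and 21.6 CPM in the BSHhigh normal colons of 2 weeks. *Col3a1* had a 12-week to 2-week log2 fold change of 3.52 ± 0.75, adjusted p = 0.00126 in BSHlow mice and 2.96 ± 0.73, adjusted p = 0.00358 in BSHhigh mice. *Col3a1* and the type V chain *Col5a2* showed the same separation. *Col5a2* stood at 3.26, 3.002, 6.82 and 7.81 CPM in the BSHlow and at 2.09, 4.05, 10.3 and 3.69 CPM in the BSHhigh normal colons of 2 weeks. *Col5a2* had a 12-week to 2-week log2 fold change of 3.71 ± 0.58, adjusted p = 9.96e-05 in BSHlow mice and 3.36 ± 0.57, adjusted p = 2.12e-04 in BSHhigh mice. Of the 9 fibrillar chains tested 6 were higher in each group, and *Col11a2*, *Col24a1* and *Col27a1* were not called, with 0.93 and 0.99 for *Col27a1*. *Col27a1* passed both limits without BSHlow non-tumor replicate 4 or normal colon replicate 4 (1.10 and 1.09), and in BSHhigh mice without non-tumor replicate 2 or normal colon replicates 2 or 3 (1.17, 1.11 and 1.11).

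In the basement membrane *Col4a1* and *Col4a2* rose again, and here *Col4a5* rose with them. *Col4a1* stood at 7.89, 10.01, 47.01 and 24.6 CPM in the BSHlow and at 10.1, 15.6, 30.1 and 7.13 CPM in the BSHhigh normal colons of 2 weeks. *Col4a1* had a 12-week to 2-week log2 fold change of 2.76 ± 0.52, adjusted p = 4.68e-04 in BSHlow mice and 3.50 ± 0.53, adjusted p = 8.99e-05 in BSHhigh mice. Its partner chain showed a like difference. *Col4a2* stood at 3.94, 4.25, 26.4 and 15.6 CPM in the BSHlow and at 3.45, 8.47, 14.1 and 3.05 CPM in the BSHhigh normal colons of 2 weeks. *Col4a2* had a 12-week to 2-week log2 fold change of 2.88 ± 0.56, adjusted p = 6.51e-04 in BSHlow mice and 3.83 ± 0.59, adjusted p = 9.68e-05 in BSHhigh mice. No library of 2 weeks reached the 12-week values of either gene. *Col4a5* gave 1.43 and 1.49, both called. *Col4a6* gave 1.17, called, and 0.58, not called, and its BSHlow call was lost without BSHlow non-tumor replicate 2 (0.85, adjusted p = 0.0728). The multiplexins were called higher as well. *Col18a1* stood at 2.43, 2.34, 9.57 and 8.51 CPM in the BSHlow and at 1.73, 4.34, 10.4 and 1.04 CPM in the BSHhigh normal colons of 2 weeks. *Col18a1* had a 12-week to 2-week log2 fold change of 2.76 ± 0.57, adjusted p = 9.52e-04 in BSHlow mice and 3.24 ± 0.58, adjusted p = 3.32e-04 in BSHhigh mice. *Col18a1* did not overlap between the times. *Col15a1* stood at 3.26, 4.42, 12.3 and 8.02 CPM in the BSHlow and at 5.27, 3.24, 5.12 and 3.13 CPM in the BSHhigh normal colons of 2 weeks. *Col15a1* had a 12-week to 2-week log2 fold change of 1.81 ± 0.46, adjusted p = 0.00409 in BSHlow mice and 2.10 ± 0.47, adjusted p = 0.00175 in BSHhigh mice. *Col15a1* overlapped in BSHlow and not in BSHhigh mice.

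The main type VI chains rose together. *Col6a1* stood at 13.05, 9.67, 34.02 and 25.96 CPM in the BSHlow and at 9.54, 15.7, 23.8 and 9.86 CPM in the BSHhigh normal colons of 2 weeks. *Col6a1* had a 12-week to 2-week log2 fold change of 2.37 ± 0.46, adjusted p = 5.94e-04 in BSHlow mice and 2.53 ± 0.46, adjusted p = 3.93e-04 in BSHhigh mice. No 2-week library reached a 12-week one. *Col6a2* stood at 9.86, 8.67, 32.3 and 26.8 CPM in the BSHlow and at 7.63, 15.5, 24.1 and 7.05 CPM in the BSHhigh normal colons of 2 weeks. *Col6a2* had a 12-week to 2-week log2 fold change of 2.28 ± 0.51, adjusted p = 0.00179 in BSHlow mice and 2.49 ± 0.52, adjusted p = 0.00103 in BSHhigh mice. *Col6a2* was likewise separated. *Col6a3* stood at 5.61, 6.50, 17.7 and 17.5 CPM in the BSHlow and at 6.36, 5.89, 15.7 and 4.73 CPM in the BSHhigh normal colons of 2 weeks. *Col6a3* had a 12-week to 2-week log2 fold change of 2.41 ± 0.54, adjusted p = 0.00189 in BSHlow mice and 2.46 ± 0.55, adjusted p = 0.00181 in BSHhigh mice. The 3 chains lay within 2.28 to 2.53 in these fold changes and did not overlap between the times. *Col6a5* was also called higher (1.91 and 3.03), lost in 5 of 8 BSHlow fits, without BSHlow non-tumor replicates 1 or 2 or BSHlow normal colon replicates 1, 2 or 4 (log2 fold change 1.42 to 2.06, adjusted p = 0.0599 to 0.135, 1 library left out at a time), while *Col6a4* was not called (0.18 and 0.84), except in BSHhigh mice without normal colon replicate 2 (1.06, adjusted p = 0.0167).

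*Col12a1* stood at 5.16, 5.25, 8.06 and 7.53 CPM in the BSHlow and at 2.36, 6.04, 11.8 and 3.13 CPM in the BSHhigh normal colons of 2 weeks. *Col12a1* had a 12-week to 2-week log2 fold change of 2.42 ± 0.43, adjusted p = 2.89e-04 in BSHlow mice and 2.66 ± 0.43, adjusted p = 1.45e-04 in BSHhigh mice. The times did not overlap for *Col12a1*. *Col9a2* (3.32 and 2.78), *Col16a1* (2.10 and 1.77), *Col23a1* (2.10 and 1.35), *Col8a2* (2.69 and 2.17) and *Col28a1* (1.51 and 1.25) were likewise higher in both groups. *Col8a1* was higher in BSHlow mice (1.20 ± 0.45, adjusted p = 0.0379), lost without BSHlow non-tumor replicate 2 or BSHlow normal colon replicates 2, 3 or 4 (log2 fold change 0.31 to 1.21, adjusted p = 0.0658 to 0.404, 1 library left out at a time).

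*Col7a1*, which rose strongly in tumors, was not called with time. *Col7a1* stood at 0.683, 1.42, 0.853 and 0.422 CPM in the BSHlow and at 1.82, 0.884, 0.149 and 0.721 CPM in the BSHhigh normal colons of 2 weeks. *Col7a1* had a 12-week to 2-week log2 fold change of -0.19 ± 0.48, adjusted p = 0.761 in BSHlow mice and -0.73 ± 0.48, adjusted p = 0.217 in BSHhigh mice. *Col17a1* stood at 0.0758, 0, 0 and 0.0704 CPM in the BSHlow and at 0.0908, 0, 0 and 0 CPM in the BSHhigh normal colons of 2 weeks. *Col17a1* was too low to be tested, with every non-tumor value of 12 weeks given above higher than these. The 1 member called lower was *Col25a1*, a transmembrane collagen of neurons. *Col25a1* stood at 1.59, 1.33, 0.569 and 1.13 CPM in the BSHlow and at 0.727, 0.884, 1.19 and 0.962 CPM in the BSHhigh normal colons of 2 weeks. The 12-week libraries gave 0.297, 0.573, 0.205 and 0.904 CPM in BSHlow and 0.375, 0.249, 0.121 and 0.0748 CPM in BSHhigh mice, overlapping with 2 weeks in BSHlow and not in BSHhigh mice. *Col25a1* had a 12-week to 2-week log2 fold change of -1.03 ± 0.41, adjusted p = 0.0460 in BSHlow mice and -1.62 ± 0.40, adjusted p = 0.00376 in BSHhigh mice. The BSHlow call was lost in 6 of 8 fits, without BSHlow non-tumor replicates 1, 2 or 3 or BSHlow normal colon replicates 1, 2 or 4 (log2 fold change -1.08 to -0.83, adjusted p = 0.0691 to 0.127, 1 library left out at a time).

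**Figure D5:**
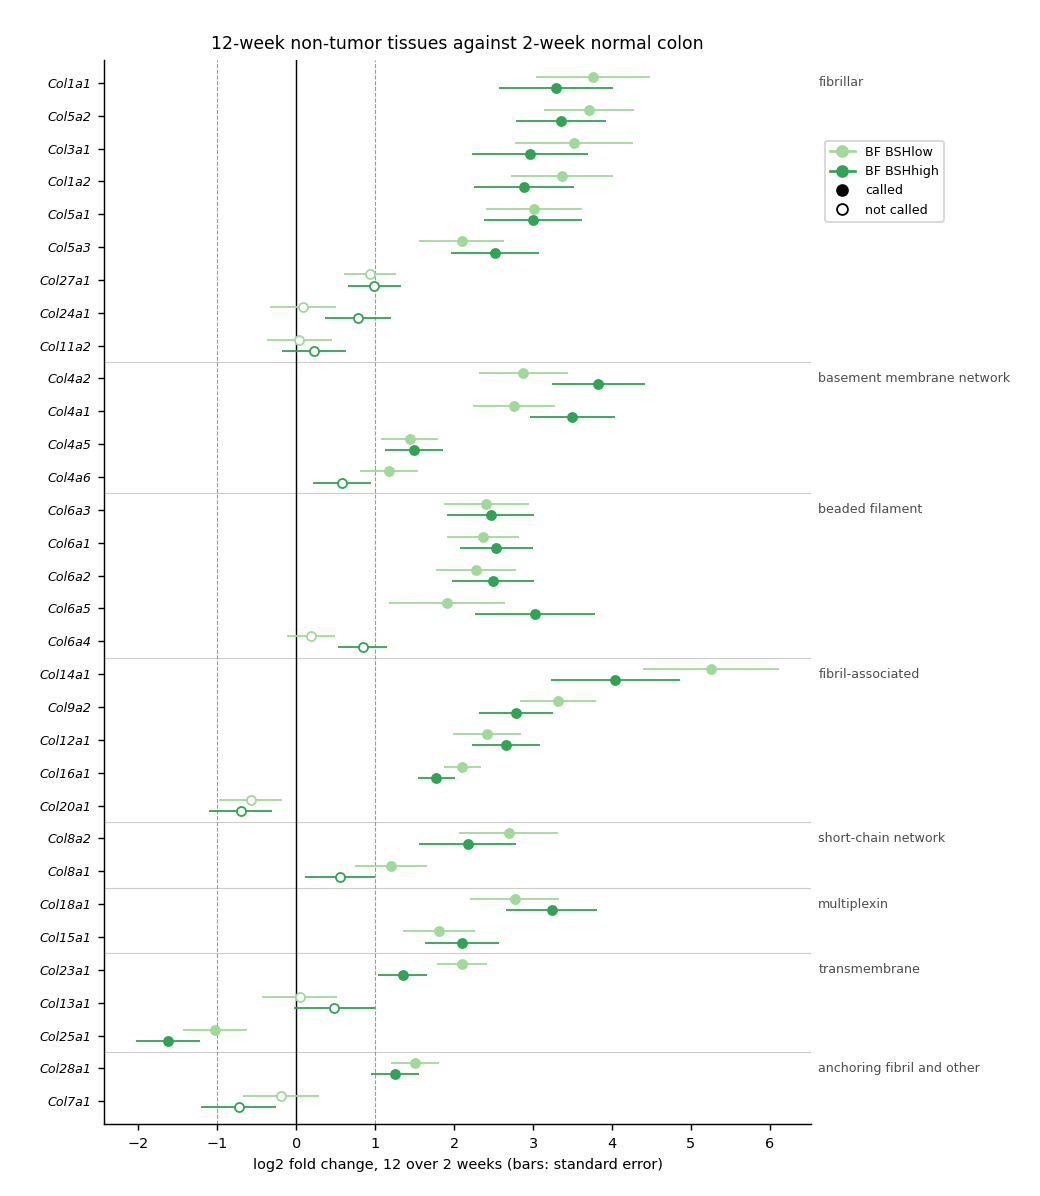
Log2 fold change of the 32 tested collagen genes in non-tumor tissue of 12 weeks against normal colon of 2 weeks, in BSHlow and BSHhigh mice, with bars for the standard error and filled symbols for members called. Most members lie above 1, led by *Col14a1* at 5.25 and 4.04, and *Col25a1* alone is called below 0.

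Stromal markers were higher at 12 weeks in both groups, while the epithelial *Cdx2* (-4.62 and -3.78) and *Krt20* (-1.51 and -1.47) were the 2 of 6 colon epithelium markers called lower. The smooth muscle sum was 171 to 336 and 172 to 329.6 CPM at 2 weeks against the 12-week values above, with 8 of 8 and 7 of 8 markers called higher. The fibroblast sum was 127 to 287 and 125 to 274 CPM at 2 weeks, with 6 of 6 called in each group. Endothelial (11.7 to 60.3 and 7.45 to 28.4 CPM at 2 weeks) and pericyte markers (18.8 to 36.96 and 16.7 to 47.1) had 4 of 6 and 3 of 4 called higher in BSHlow and 6 of 6 and 3 of 4 in BSHhigh mice. Their part in the collagen rise was not tested, and how deep into the colon wall each sample reached is not given in the sources used here.

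Genes that make, trim and bind collagen were followed in 4 lists with 49 genes, of which 48 were tested with the tumors. In BSHlow mice 20 were higher and 7 lower in tumors, and in BSHhigh mice 15 and 5, with medians of 0.68 and 0.59. Over all genes 16.5% were higher and 19.3% lower in BSHlow and 14.3% and 14.6% in BSHhigh mice. Of 19 hydroxylation and folding genes 6 were higher and 2 lower in BSHlow and 6 and 3 in BSHhigh tumors, with the prolyl hydroxylase subunit *P4ha2* at 1.999 and 1.67, the galactosyltransferase *Colgalt1* at 1.43 and 1.32, and *Creb3l1*, a transcription factor of collagen secretion, at -2.37 and -2.22. Of 13 cleavage and cross-linking genes 7 and 5 were higher and 1 and 1 lower. The procollagen C-proteinase *Bmp1* gave 2.24 and 2.32, the lysyl oxidases *Lox* 1.84 and 3.34 and *Loxl2* 2.03 and 1.51, and *Pcolce2*, an enhancer of C-proteinase, -3.28 and -2.41. All BSHlow values of these lists include non-tumor replicate 2. *Lox* had 816 counts in that library and 50, 82 and 65 in BSHlow non-tumor replicates 1, 3 and 4.

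Of 9 collagen-binding matrix genes 4 were higher and 3 lower in BSHlow and 3 and 1 in BSHhigh tumors, among them *Thbs1* at 2.88 and 1.88 and the fibril-spacing proteoglycan *Lum* at -2.98 and -1.94. *Lum*, too, was highest in BSHlow non-tumor replicate 2, with 1557 counts against 269, 513 and 58 in replicates 1, 3 and 4. Of 8 receptor genes 3 were higher and 1 lower in BSHlow and 1 and 0 in BSHhigh tumors, with the integrin subunit *Itga2* at 1.83 and 1.09. From 2 to 12 weeks 31 of 48 tested genes were higher and 1 lower in each bacterial group, where 16.7% and 16.5% of all genes were higher and 7.82% and 7.39% lower. The chaperones *Serpinh1* (2.75 and 3.14) and *Fkbp10* (3.05 and 2.44), the procollagen N-proteinase *Adamts2* (3.34 and 3.92), the matrix proteins *Fn1* (5.22 and 5.36) and *Dcn* (3.92 and 3.43) and the collagen receptor *Ddr2* (3.08 and 3.35) were among those called higher, and the 1 lower gene was *Itga2* (-2.62 and -1.70). Between bacterial groups 0 of these genes were called by edgeR in tumors, in non-tumor tissues, at 2 weeks or in the interaction, and 0 at an unadjusted p under 0.05 with the fold limit.

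Of the 44 members 38 were tested in at least 1 comparison. The other 6 were *Col4a3*, *Col4a4*, *Col6a6*, *Col10a1*, *Col19a1* and *Col26a1*. *Col10a1*, the collagen of hypertrophic cartilage, had no count in any normal or non-tumor library and stood at 1.18, 0.205, 0.620 and 0.0977 CPM in BSHlow and 0.362, 0.313 and 0.143 CPM in BSHhigh tumors, at least 2.65-fold and 1.40-fold higher against 3 counts per library. Its exons overlap those of *Nt5dc1* on the opposite strand, which reached 379 counts against 24 for *Col10a1*, and whether the counting used strand is not given in the sources used here, so its source is uncertain. *Col20a1* shares exonic bases with BX649560.1 on its own strand (171 against 41 counts at most), and its values are uncertain as well. *Col3a1* alone had counts that were not whole, in 5 libraries. It shares exonic bases with *Gm47302*, which reached 2 counts against 28954, and their part in this was not tested.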

How the data were processed

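RNA of 23 colon samples was made into stranded libraries (the labels name a total RNA kit, the study's methods an mRNA kit) and sequenced in pairs. Per the study's methods, the authors used Cutadapt for adapter trimming, STAR for alignment with genome build mm10 and Picard for mapping statistics, and deposited expected counts per gene from RSEM, without normalization. All 55449 gene identifiers and symbols matched GENCODE M21. A row with text in place of values (*Fgf6*) and 1 blank row were left out. Groups came from the labels, and the columns of the BSHhigh tumors, whose names repeat, were identified as a group through the study's own table of counts and called a, b and c.

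Expected counts were rounded, filtered with filterByExpr, scaled by TMM and fitted with edgeR 4.0.16 in R 4.3.3 (quasi-likelihood, prior count 2), Benjamini-Hochberg over all genes tested. Standard errors are the log2 fold change divided by the square root of F. BSH comparisons used their own 2 groups, tumor comparisons and the interaction the 15 libraries of 12 weeks, and time comparisons the 16 non-tumor and normal colon libraries. DESeq2 1.42.0, limma-voom 3.58.1, RLE and upper-quartile scaling, no filter, at least 10 counts in every library, other sets of libraries and leaving out each library were alternatives. Python 3.11.15, pandas 2.3.3, numpy 2.4.6 and matplotlib 3.10.9 were used for tables and plots. Each fit was tested on simulated data with 200 changed genes. The simulated data held no outlying library such as BSHlow non-tumor replicate 2, and so say nothing about calls that rest on it. Depth of 12401388 to 17903008 counts makes 3 counts the floor given for a group at 0, which covers counting error only. Replicates of a group differed by far more than sampling noise (chi-square per degree of freedom 16.6 to 126), so none was counted as a duplicate. Deviations of samples that share a number in the labels correlated at -0.21 to 0.30 with mixed sign, so the numbers were not taken as pairs.

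The members follow from their symbols, but the family, its classes and the pathway and marker lists were chosen with earlier results of these data known. Values are given for every library of 14 chosen members and, per comparison, of up to 5 higher and 5 lower members with the largest fold change, and of others where a result turned on them. Marker lists stood for fibroblasts, smooth muscle, endothelium, pericytes, colon and squamous epithelium, enteric glia, mesothelium, adipocytes and leukocytes. A further marker list is not reported here.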

Additional observations from a re-analysis of the deposited data

Results flagged for a closer look

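Of 118 groups of 4 libraries, 1 for each member and group with enough counts, 4 held a library far from the other 3 by Dixon's ratio on the log2 CPM scale. Chance gives about 1 in 20. *Col3a1* stood at 657 CPM in BSHhigh non-tumor replicate 4, with 305 to 318 CPM in the other 3. *Col4a1* stood at 242 CPM in BSHlow non-tumor replicate 2, with 120 to 126 CPM in the others, and *Col28a1* at 5.10 CPM in the same library, with 2.04 to 2.37 CPM. *Col23a1* stood at 1.76 CPM in BSHhigh non-tumor replicate 3, with 2.55 to 2.69 CPM in the others.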

How the results depend on the processing

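Counts of called members (higher and lower) moved by over 1.5 times under some settings, and the cause was not tested except where fewer genes or samples entered. In BSHhigh against BSHlow tumors, higher calls were 1 with DESeq2 and 1 with the 15-library fit, and lower calls 1 with DESeq2 and 2 with no fold limit, against 0. In non-tumor tissues DESeq2 gave 1 lower, and in the interaction 1 higher. A minimum of 10 counts in every library, which tests fewer members, gave 14 higher and 3 lower in BSHlow and 13 and 1 in BSHhigh tumors against non-tumor tissues. BSHlow lower calls were 4 with the 2-group fit and 4 with the replicate block. Leaving out 1 library gave 20 to 26 higher and 3 to 8 lower in BSHlow and 17 to 22 and 1 to 3 in BSHhigh mice. The 1 lower member of 12 against 2 weeks became 0 in BSHlow mice with DESeq2, upper-quartile scaling, no filter, at least 10 counts, the 2-group fit and the replicate block (0 to 1 when 1 library was left out), and 0 in BSHhigh mice with at least 10 counts, the 2-group fit and the replicate block. The replicate block gave 21 higher in BSHlow tumors, 19 and 22 higher at 12 weeks, and 0 in the BSH comparisons within non-tumor tissue and 2-week colon. The 103 calls of single members gave 1539 values under the alternatives, of which 1450 were called, 89 were not and 0 changed direction. The 164 tested values that were not called gave 2643, of which 28 were called and 166 changed direction. With 3 or 4 libraries a group, members under about 1 CPM rest on few counts, and differences such as those of *Col8a2* and *Col17a1* were weakly determined.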

Other observations

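The marker lists gave these further values. Of 2 mesothelium markers tested, 1 was higher and 1 lower in BSHlow tumors, 0 and 1 in BSHhigh tumors, and 2 were higher at 12 weeks in each group. Adipocyte markers were lower in tumors for 2 of 4 in each group, with *Adipoq*, *Plin1* and *Lep* at 0 in all BSHlow tumors, and at 12 weeks 1 of 4 was lower in BSHlow and 0 in BSHhigh mice. Of 5 leukocyte markers 2 were lower in BSHlow tumors, 1 was higher and 1 lower in BSHhigh tumors, and at 12 weeks 3 were higher in each group and 1 lower in BSHhigh mice. Of the 2 squamous markers tested with time, 1 was lower at 12 weeks in each group, and enteric glia markers were higher at 12 weeks for 4 of 4 in each.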
